A study of Mus musculus with 2 samples.

Results

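The *Myc*, *Max* and *Mxd* network was examined in RNA-seq libraries of cultured mouse B cell progenitors. Its members are the 10 genes *Myc*, *Mycn*, *Mycl*, *Max*, *Mxd1*, *Mxd3*, *Mxd4*, *Mxi1*, *Mnt* and *Mga*. They were listed by name and not by a limit on their values, although earlier results of these data were known, and are represented by 15 protein-coding RefSeq transcripts among 26968, or by 10 of 20657 genes. Steady state RNA was measured in 1 library of *Ebf1* -/- pre-pro-B cells and 1 library of *Rag2* -/- pro-B cells, both on a C57BL/6 background and both grown on OP-9 stromal cells, a bone marrow stromal line used to support lymphoid culture. *Ebf1* -/- cells lack a factor needed for B lineage specification and are held at the multi-potent pre-pro-B stage. *Rag2* -/- cells cannot recombine immunoglobulin genes and are held at the committed pro-B stage. The pre-pro-B cells came from the livers of female mid-gestation embryos and received Il-7 (5 ng/mL), Scf (10 ng/mL) and Flt3l (10 ng/mL), whereas the pro-B cells came from the bone marrow of adult males and received Il-7 (5 ng/mL) alone. Stage, genotype, sex, age, tissue of origin and added cytokines therefore cannot be told apart in this comparison. With 1 library per cell type there is no test, and every difference below is a difference between 2 libraries.

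Max is the shared partner of the network. It is a basic helix-loop-helix leucine zipper protein that forms heterodimers with Myc, N-Myc (*Mycn*) and L-Myc (*Mycl*), which activate genes of growth, ribosome production and metabolism. Max also pairs with Mxd1, Mxd3, Mxd4, Mxi1 and Mnt, which recruit Sin3 corepressors to the same sites, and with Mga, a very large protein found in a variant Polycomb repressive complex. All of these dimers recognise the E-box CACGTG, so the relative amounts of the partners bear on which complex can occupy a shared site. In lymphoid cells Myc proteins are known for driving progenitor proliferation, and *Mycn* is best known from embryonic and progenitor cells.

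The E-box is shown here because it is the sequence that every Max dimer binds, and several genes of the network carry it at their own start. In the RefSeq promoter windows (build GRCm38.p6, 250 bases before to 50 bases after the gene start, 300 in all), 11 windows of 9 members were matched. No window was matched for *Myc*, so its promoter was not examined. The motif CACGTG, which reads the same on both strands, was found in the windows of 3 members, *Max*, *Mxd4* and *Mnt*. Each of these members had a single window. Over all 32851 promoter windows, 7.15% held the motif. The first base of the motif lies at -3 from the annotated start of *Max*, at -219 from that of *Mxd4* and at -123 from that of *Mnt*. Each stretch below is written 5′ to 3′ on the strand of its gene, with the E-box in capitals. They lie on the minus strand at chr12:76962234-76962263 for *Max* and chr5:34187912-34187941 for *Mxd4*, and on the plus strand at chr11:74830789-74830818 for *Mnt*, all in GRCm38.p6.
Max: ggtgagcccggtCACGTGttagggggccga
Mxd4: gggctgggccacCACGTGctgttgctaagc
Mnt: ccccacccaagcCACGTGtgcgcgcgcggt
A match is a description of these letters, and binding was not measured.

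The libraries carried the markers of their labelled stages. *Pax5*, *Vpreb1*, *Igll1*, *Cd79a* and *Cd79b* lay between 135 and 798 FPKM (fragments per kilobase of transcript, scaled to the size of the library) in the pro-B library and between 0.20 and 1.81 in the pre-pro-B library, and *Flt3*, *Kit* and *Cd34* were at least 107 FPKM in the pre-pro-B library and at most 1.52 in the pro-B library. *Il7r*, shared by both stages, had 349 and 424 FPKM. The targeted genes were not at 0 in the library of their own null cells, with 64.0 FPKM of *Ebf1* in the pre-pro-B library against 273 in the pro-B library, and 22.9 FPKM of *Rag2* in the pro-B library against 34.5 in the pre-pro-B library. Markers of other cells also differed. The summed FPKM of 5 T cell markers was 115 in the pre-pro-B library and 3.25 in the pro-B library, with 3 and 1 of them at 1 FPKM or more. For 5 myeloid markers the sums were 61.0 and 6.52, with 3 and 1 at 1 FPKM or more and *Elane* listed at 0 in both libraries. For 8 stromal markers the sums were 18.2 and 7.74, with 2 and 3 at 1 FPKM or more. *Pdgfrb* made up most of the first of these sums (15.9 FPKM), where the pro-B library had 0.377. The matrix genes were higher in the pro-B library or listed at 0 in both, with *Col1a1* at 0.207 and 0.522 FPKM, *Col1a2* at 0.707 and 2.82, *Col3a1* at 0.242 and 1.13, *Sparc* at 1.13 and 2.81, *Lum* at 0 and 0.080, and *Postn* and *Dcn* at 0. None of the 3 matched erythroid markers reached 1 FPKM. The part of such cells in the values below was not tested.

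Across the 10 members, 5 were at least 2-fold lower in the pro-B library, 1 was at least 2-fold higher and 4 lay within 2-fold. Among all 12241 genes with an FPKM above 0 in both libraries, 22.1% were at least 2-fold lower and 17.3% at least 2-fold higher. The median log2 ratio (pro-B over pre-pro-B, as throughout) was -1.06 over the members and -0.12 over all genes. The lower members were all 3 Myc paralogs with *Mxd1* and *Mnt*, and the higher member was *Mxd3*. *Max*, *Mxd4*, *Mxi1* and *Mga* lay within 2-fold. In bulk RNA, fewer cells that carry a transcript and less of it per cell cannot be told apart.

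**Figure D1:**
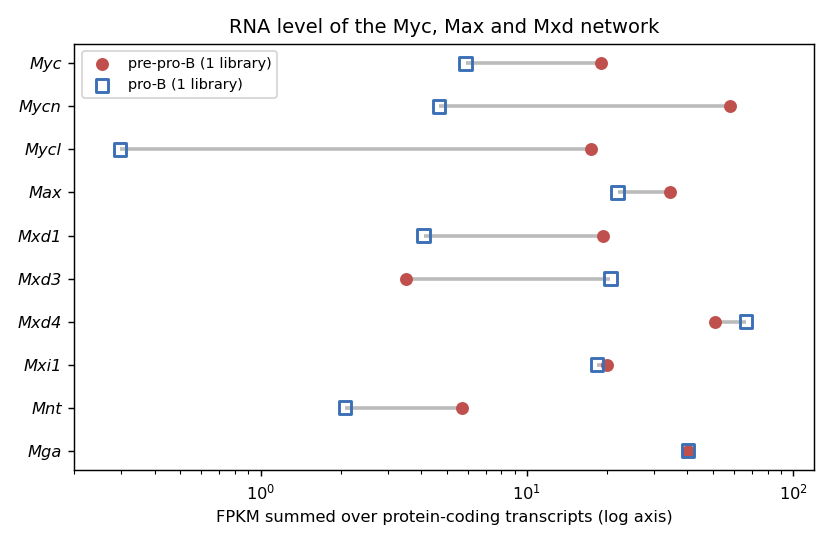
RNA level of each of the 10 genes in the pre-pro-B library (filled circles) and the pro-B library (open squares), as FPKM summed over protein-coding transcripts on a logarithmic axis. The 3 Myc paralogs lie to the left in the pro-B library, from 19.0 to 5.88 for *Myc*, 57.7 to 4.68 for *Mycn* and 17.4 to 0.296 for *Mycl*, while the symbols of *Mga* coincide near 40 FPKM.

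The activating arm was lower in the pro-B library throughout. *Mycn* (chromosome 12 of mm9, 12942902 to 12948720, minus strand), encoding N-Myc, had a level of 57.7 FPKM in the pre-pro-B library, with the limits of Cuffdiff's 95% confidence interval at 2.18 and 120. In pro-B cells it had a level of 4.68 FPKM (limits 0.0761 and 11.8), 12.3-fold lower, with a log2 ratio of -3.62. Its level was at percentile 91.7 of all genes above 0 in the pre-pro-B library and at percentile 42.7 in the pro-B library. *Mycn* was thus the most abundant member of the whole network in the pre-pro-B library and the seventh in the pro-B library.

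*Mycl* (chromosome 4 of mm9, 122672895 to 122679728, plus strand), encoding L-Myc, showed the widest difference of the members. Its single transcript, NM_008506, had a level of 17.4 FPKM (limits 1.10 and 38.6) in the pre-pro-B library and of 0.296 (limits 0 and 0.995) in the pro-B library. This is a 58.6-fold difference and a log2 ratio of -5.87, at percentile 3.19 of the ratios of all genes. The lower limit in the pre-pro-B library lies just above the upper limit in the pro-B library. At the nominal sequencing depth, these FPKM correspond to about 5465 fragments in the pre-pro-B library and about 93.2 in the pro-B library, so the low value in the pro-B library was not a value of single fragments.

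*Myc* itself (chromosome 15 of mm9, 61816946 to 61821929, plus strand) had a summed level of 19.0 FPKM in the pre-pro-B library and of 5.88 in the pro-B library, 3.23-fold lower, with a log2 ratio of -1.69. The transcript NM_010849 had a level of 13.2 FPKM (limits 0.188 and 28.7) and of 4.42 (limits 0.0508 and 10.6). The transcript NM_001177354 had a level of 5.83 FPKM (limits 0 and 17.0) and of 1.46 (limits 0 and 5.09). Both were lower in the pro-B library, and both intervals overlapped. The deposited lengths of these transcripts differ by 3 bases, and the GENCODE annotation of mm9 places the second of 3 *Myc* exons at a start of 61819062 or 61819065, a difference of 3 bases. Transcripts that differ at such a splice site alone are separated only by reads that cross it. NM_010849 held 69.3% of the *Myc* FPKM in the pre-pro-B library and 75.2% in the pro-B library. The genes whose levels lay nearest to those of *Myc* in both libraries were *Mettl7a1* (18.5 and 5.73 FPKM), *Prex1* (18.7 and 5.68) and *Ctso* (18.1 and 5.95), at distances of 0.051, 0.055 and 0.069 on the log2 scale. With 2 libraries this is a likeness of level and nothing more.

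Summed over the paralogs, Myc family FPKM was 94.0 in the pre-pro-B library and 10.9 in the pro-B library, an 8.66-fold difference and a log2 ratio of -3.12. *Mycn* held 61.3% of this sum in the pre-pro-B library, *Myc* 20.2% and *Mycl* 18.5%. In pro-B cells *Myc* held 54.2%, *Mycn* 43.1% and *Mycl* 2.73%. *Mycn* had 3.03 times the summed FPKM of *Myc* in the pre-pro-B library and 0.795 times in the pro-B library. In the latter neither paralog clearly led. The summed *Myc* FPKM was 5.88, and that of *Mycn* was 4.68 (limits 0.0761 and 11.8). Intervals are given per transcript only. Those of *Mycn* and of NM_010849, which is only a part of the *Myc* sum (4.42, limits 0.0508 and 10.6), overlapped almost wholly. Without *Mycn*, whose removal was chosen after the values were seen, the log2 ratio of the sum was -2.56.

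*Max* (chromosome 12 of mm9, 78038256 to 78063235, minus strand) lay within 2-fold, with a summed level of 34.5 FPKM in the pre-pro-B library and of 21.9 in the pro-B library and a log2 ratio of -0.65. Its transcripts differ by a single exon of 27 bases that adds 9 codons near the start of the protein, ahead of the DNA-binding region. The exon is printed because it is all that separates the transcripts compared here. It lies at chr12:78062250-78062276 of mm9 (NCBIM37) on the minus strand, within the coding sequence, where its first base is coding base 37, and all of it is in capitals.
Max exon: GAAGAGCAACCGAGGTTTCAATCTGCG
NM_001146176, without the exon and 151 codons long, had a level of 27.9 FPKM (limits 1.29 and 57.9) in the pre-pro-B library and of 14.8 (limits 0.184 and 33.9) in the pro-B library. NM_008558, with the exon and 160 codons long, had a level of 6.58 FPKM (limits 0 and 21.8) and of 7.16 (limits 0 and 20.7). The longer form held 19.1% of the *Max* FPKM in the pre-pro-B library and 32.7% in the pro-B library. The intervals of each transcript overlapped widely, and the division between them rests on the reads at this exon and its junctions.

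Among the Mxd proteins, the short-lived antagonists that replace Myc on Max, the members differed in direction. *Mxd1* (chromosome 6 of mm9, 86597038 to 86619153, minus strand), known for its induction in differentiating myeloid and other cells, had a level of 19.3 FPKM (limits 3.32 and 35.3) in the pre-pro-B library and of 4.09 (limits 0.0593 and 8.41) in the pro-B library. It was 4.71-fold lower in the pro-B library, a log2 ratio of -2.24, and the intervals overlapped. The myeloid marker sum given above was likewise lower in the pro-B library (61.0 and 6.52 FPKM), and its part was not tested. *Mxd3* (chromosome 13 of mm9, 55426529 to 55431119, minus strand), known as the family member expressed in proliferating progenitors, had a level of 3.50 FPKM (limits 0 and 18.1) in the pre-pro-B library and of 20.6 (limits 0 and 68.8) in the pro-B library. It was 5.87-fold higher in the pro-B library, with a log2 ratio of 2.55 at percentile 94.4 of all ratios, but both intervals reach 0 and overlap.

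The end of *Mxd3* overlaps the end of *Prelid1*, a gene on the plus strand, over 104 bases (chromosome 13, 55426529 to 55426632). The deposited locus of *Mxd3* reaches further to that side than the annotated gene, to 55423416. *Prelid1* had 87.1 FPKM in the pre-pro-B library and 114 in the pro-B library, a log2 ratio of 0.39. The libraries and their alignment were strand-specific, and the part of *Prelid1* reads in the *Mxd3* value was not tested.

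The order of *Mxd1* and *Mxd3* was opposite in the libraries. *Mxd1* had 5.51 times the FPKM of *Mxd3* in the pre-pro-B library, and *Mxd3* had 5.02 times that of *Mxd1* in the pro-B library. Their intervals overlapped in both libraries.

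*Mxd4* (chromosome 5 of mm9, 34516536 to 34530369, minus strand), a family member associated with resting and differentiated cells, was the most abundant antagonist in both libraries. Its FPKM was 50.7 (limits 7.0 and 94.3) in the pre-pro-B library and 66.3 (limits 11.5 and 121) in the pro-B library, a log2 ratio of 0.39 with intervals that overlapped almost wholly. It was the second most abundant member in the pre-pro-B library and the first in the pro-B library, at percentiles 89.9 and 92.3 of all genes. *Mxd4* had 2.62 times the FPKM of *Mxd1* in the pre-pro-B library and 16.2 times in the pro-B library.

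*Mxi1* (chromosome 19 of mm9, 53384996 to 53450300, plus strand), another of the antagonists, had a summed level of 20.0 FPKM in the pre-pro-B library and of 18.3 in the pro-B library, a log2 ratio of -0.13. Its 3 transcripts encode 295, 192 and 228 codons by annotated transcripts of the same length, and *Mxi1* proteins are known to differ at their N-termini. NM_001008543, the one of 192 codons, was the most abundant in both libraries, with a level of 9.15 FPKM (limits 0.0379 and 22.8) in the pre-pro-B library and of 9.75 (limits 0.149 and 23.0) in the pro-B library. NM_001008542, of 295 codons, had 7.68 and 5.51 FPKM, and NM_010847, of 228 codons, had 3.19 and 3.03 FPKM in the same order. The order of the 3 transcripts was the same in both libraries, and none differed 2-fold.

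*Mnt* (chromosome 11 of mm9, 74644422 to 74659227, plus strand), the broadly expressed antagonist, was the scarcest after *Mxd3* in the pre-pro-B library and the scarcest after *Mycl* in the pro-B library. Its FPKM was 5.71 (limits 0.276 and 14.5) in the pre-pro-B library and 2.07 (limits 0.0258 and 6.13) in the pro-B library, 2.75-fold lower, with a log2 ratio of -1.46 and overlapping intervals.

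*Mga* (chromosome 2 of mm9, 119722964 to 119795317, plus strand), which carries a T-box as well as a helix-loop-helix region, had nearly the same summed FPKM in both libraries, 40.4 in the pre-pro-B library and 40.2 in the pro-B library. Its transcripts differed in opposite directions, each within 2-fold. NM_013720, of 3042 codons and 24 exons, had a level of 26.7 FPKM (limits 0.574 and 59.0) in the pre-pro-B library and of 32.7 (limits 1.16 and 69.2) in the pro-B library. NM_001164274, of 2833 codons and 23 exons, had a level of 13.7 FPKM (limits 0.00836 and 37.8) and of 7.50 (limits 0 and 25.7). The shorter form held 33.8% of the *Mga* FPKM in the pre-pro-B library and 18.7% in the pro-B library.

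**Figure D2:**
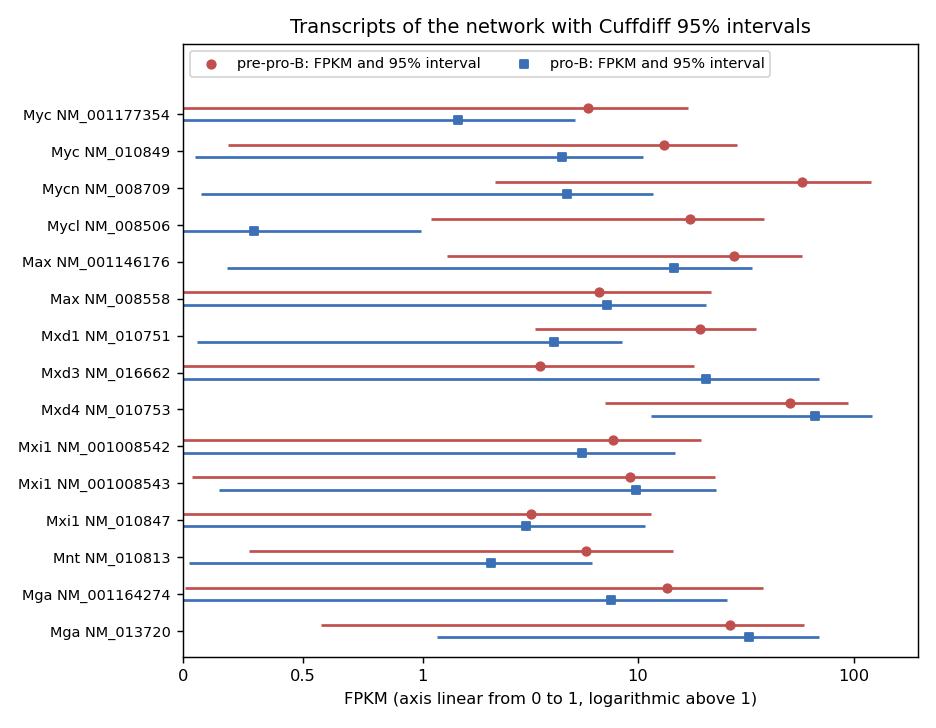
FPKM of the 15 transcripts with the limits of Cuffdiff's 95% confidence interval, on an axis that is linear from 0 to 1 and logarithmic above 1. Circles are pre-pro-B and squares pro-B. The *Mycl* intervals are the only ones that do not overlap, 1.10 to 38.6 against 0 to 0.995.

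Cuffdiff's intervals were wide for all members. With 1 library per cell type they do not measure variation between replicate cultures. Of the 15 transcripts, 1 had intervals that did not overlap and was lower in the pro-B library (*Mycl*), and 0 had intervals apart and were higher. Among all 18877 transcripts above 0 in a library, 2.06% had intervals apart and were lower in the pro-B library, and 0.959% had intervals apart and were higher. The lower limit was 0 for 5 of the 15 transcripts in the pre-pro-B library and for 7 in the pro-B library. The members' values correspond to between about 93.2 and about 40969 fragments each at the nominal depth.

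**Figure D3:**
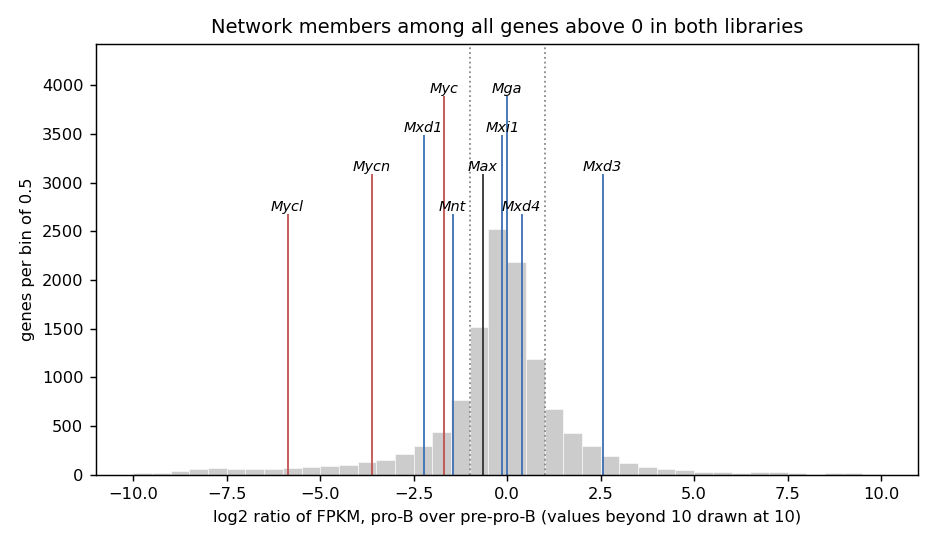
Number of genes (grey bars, bins of 0.5) by log2 ratio of FPKM, pro-B over pre-pro-B, with the members as vertical lines, red for the Myc paralogs, black for *Max* and blue for its other partners. Line height has no meaning and the dotted lines mark 2-fold. *Mycl*, *Mycn*, *Mxd1*, *Myc* and *Mnt* lie beyond the lower limit, from -5.87 to -1.46, and *Mxd3* lies at 2.55.

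FPKM are scaled to transcript length, so the levels of different members can be set side by side. In pre-pro-B cells the order from high to low was *Mycn*, *Mxd4*, *Mga*, *Max*, *Mxi1*, *Mxd1*, *Myc*, *Mycl*, *Mnt* and *Mxd3*. In pro-B cells it was *Mxd4*, *Mga*, *Max*, *Mxd3*, *Mxi1*, *Myc*, *Mycn*, *Mxd1*, *Mnt* and *Mycl*. Among the 6 members with a single transcript, 0 of 15 pairs had intervals apart in the pre-pro-B library. In pro-B cells 3 pairs did, *Mxd4* being above *Mxd1*, *Mnt* and *Mycl*. Neighbours in either order among these 6 were not separated by their intervals.

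The balance of the network was different in the libraries. The summed FPKM of the 10 genes was 268 in the pre-pro-B library and 184 in the pro-B library, and *Max* made up 12.9% and 11.9% of it. The Myc paralogs made up 35.1% in the pre-pro-B library and 5.89% in the pro-B library. The other partners, *Mxd1*, *Mxd3*, *Mxd4*, *Mxi1*, *Mnt* and *Mga*, made up 52.1% and 82.2%. Their summed FPKM was 140 in the pre-pro-B library and 151 in the pro-B library, a log2 ratio of 0.12 (-0.0024 in TPM), beside -3.12 for the Myc paralogs. In pre-pro-B cells the FPKM of the other partners was 1.48 times that of the Myc paralogs, and in the pro-B library it was 14 times. The Myc paralogs had 2.73 times the FPKM of *Max* in the pre-pro-B library and 0.495 times in the pro-B library. All partners together had 6.78 and 7.41 times the FPKM of *Max*. These are ratios of RNA, and the amounts of the proteins were not measured here.

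**Figure D4:**
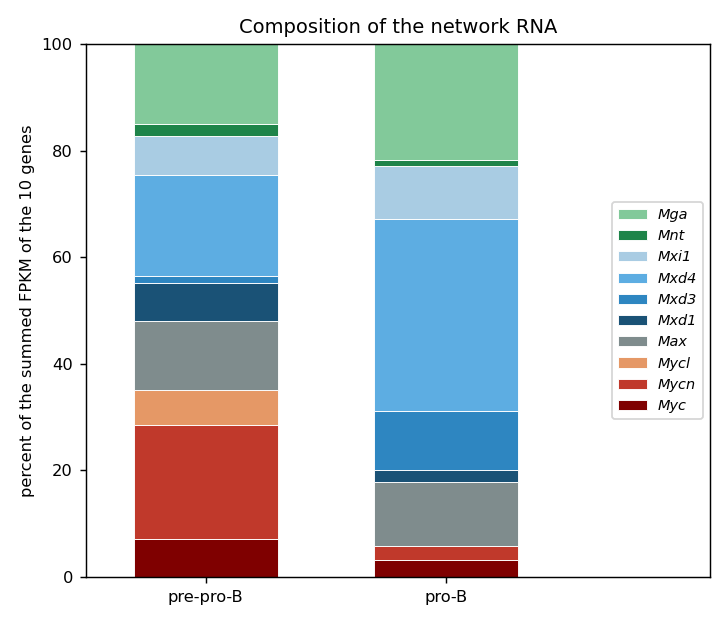
Each member's percent of the summed FPKM of the 10 genes in the pre-pro-B and the pro-B library, stacked to 100. The red and orange segments of the Myc paralogs together cover 35.1% in the pre-pro-B library and 5.89% in the pro-B library, and *Mxd4* widens from 18.9% to 36.0%.

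The genes that work with the network were followed in 7 lists, together 103 genes. Of the Mlx arm, a parallel branch in which Mlx pairs with the glucose-sensing factors encoded by *Mlxip* and *Mlxipl*, none of the 2 genes above 0 in both libraries differed 2-fold. Over all genes 17.3% were at least 2-fold higher and 22.1% at least 2-fold lower. *Mlx* had 18.3 FPKM in the pre-pro-B library and 12 in the pro-B library, and *Mlxip* had 17.0 and 29.3. *Mlxipl* had 0.00917 FPKM in the pre-pro-B library and was listed at 0 in the pro-B library.

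Of 13 Sin3 and Ncor genes, 2 were at least 2-fold lower in the pro-B library, 0 were higher and 11 lay within 2-fold, with a median log2 ratio of -0.09. The share that was lower, 15.4%, stands beside 22.1% over all genes, and the share that was higher beside 17.3%. *Sin3a*, the scaffold that Mxd proteins bind, had 61.0 FPKM in the pre-pro-B library and 57.2 in the pro-B library, and *Sin3b* had 48.9 and 50.2. The lower genes included the deacetylase *Hdac1* (11.2 and 1.53 FPKM, intervals 0.461 to 45.5 and 0 to 8.18). *Hdac2*, a close relative of *Hdac1*, had 70.8 and 62.8. The highest log2 ratios were those of the Sin3 subunits *Sap30*, at 0.63, and *Rbbp7*, at 0.55 (46.3 and 67.7 FPKM).

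Of 10 genes of the Polycomb complex that contains Mga, 1 was at least 2-fold higher, 1 was lower and 8 lay within 2-fold, with a median log2 ratio of 0.06, beside 17.3% higher and 22.1% lower over all genes. *E2f6*, its DNA-binding E2F subunit, had 20.7 FPKM (limits 1.05 and 43.5) in the pre-pro-B library and 7.42 (limits 0.0863 and 17.6) in the pro-B library. *Yaf2*, which binds the Ring1 proteins, had 2.46 and 9.26. Its relative *Rybp* had 3.29 and 2.09, and *Tfdp1*, the dimerization partner of E2F proteins, had 11.1 and 18.5. *Pcgf6*, the Polycomb subunit particular to this complex, had 9.78 and 9.68, and *L3mbtl2* had 7.07 and 7.75.

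All 13 genes listed as coactivators or other partners of Myc lay within 2-fold, beside 17.3% higher and 22.1% lower over all genes. Their log2 ratios ran from -0.81 to 0.64, with a median of -0.26 beside -0.12 over all genes. They include the scaffold *Trrap* (17.0 and 11.5 FPKM), the chromatin reader *Bptf* (36.5 and 20.8), *Wdr5* (28.4 and 39.9) and *Actl6a* (45.7 and 71.2). *Zbtb17*, encoding Miz-1, a partner through which Myc represses genes, had 6.88 and 7.43.

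Of 13 genes that set the stability of Myc proteins, 2 were at least 2-fold higher in the pro-B library, 3 were lower and 8 lay within 2-fold, with a median log2 ratio of -0.25. These shares, 15.4% higher and 23.1% lower, are near the 17.3% and 22.1% over all genes. The higher genes were the mitotic kinases *Aurka* (10.6 FPKM in the pre-pro-B library, limits 0.104 and 30.4, and 54.3 in the pro-B library, limits 2.41 and 146) and *Plk1* (13.8 and 56.0), which are known to stabilise N-Myc and are also cell cycle genes. The lower genes were the deubiquitinase *Usp36* (5.21 and 1.27), *Fbxo32* (11.0 and 3.39) and *Trim32* (6.68 and 3.15). *Fbxw7*, the ubiquitin ligase subunit that marks Myc for degradation, had 16.7 and 14, and its log2 ratio was -0.26.

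Of 40 genes that Myc is known to induce, 36 lay within 2-fold, 2 were at least 2-fold higher in the pro-B library and 2 were lower, beside 17.3% higher and 22.1% lower over all genes. Their median log2 ratio was -0.11, beside -0.12 over all genes. The lower genes were *Gnl3*, encoding nucleostemin (67.6 FPKM, limits 2.91 and 146, and 25.7, limits 0.243 and 65.2), and *Srm*, encoding spermidine synthase (6.19 and 2.39). The higher genes were *Ldha*, encoding lactate dehydrogenase (156 and 340), and *Tert*, the telomerase subunit (0.0656 and 1.53).

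The genes within 2-fold ranged widely. *Rrp9*, *Mybbp1a*, *Rcl1*, *Ppan* and *Polr1b*, which act in ribosome production, had log2 ratios between -1.0 and -0.77, short of 2-fold, and those of *Wdr43*, *Nop16* and *Nolc1* were -0.62, -0.61 and -0.56. Other nucleolar and ribosome production genes differed less, and in both directions. The log2 ratios of *Nop58*, *Fbl*, *Pa2g4* and *Wdr12* were 0.52, 0.37, 0.25 and 0.18. Those of *Bop1* and *Rrp12* were -0.43 and -0.36. *Ncl* had 50.6 FPKM in the pre-pro-B library and 55.3 in the pro-B library, *Nop56* had 41.3 and 44.6, and *Npm1* had 223 and 186. *Odc1*, the first enzyme of polyamine synthesis, had 28.4 and 22.2. *Cad*, of pyrimidine synthesis, had 3.81 and 3.65. The cell cycle kinase gene *Cdk4* had 145 and 158, and *Ccnd2* had 34.9 and 26.2. Several of these genes, *Npm1* and *Ldha* among them, have processed copies in the mouse genome, and Cuffdiff divides reads that match several places, so their values are less certain.

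Of 12 genes that Myc is known to repress, 5 were at least 2-fold higher in the pro-B library, 3 were lower and 4 lay within 2-fold, with a median log2 ratio of 0.69 (1.27 with the most abundant transcript of each gene). Over all genes 17.3% were higher and 22.1% lower, so the share of the list that was lower, 25%, is near that of all genes. The higher genes included cyclin-dependent kinase inhibitors. *Cdkn2c* had 6.22 FPKM (limits 0.143 and 12.3) in the pre-pro-B library and 116 (limits 26.1 and 206) in the pro-B library, and its intervals did not overlap. *Cdkn1b* had 33.7 (limits 7.05 and 60.3) and 112 (limits 25.2 and 199), with overlap. *Gadd45a*, a DNA damage response gene, had 5.18 (limits 0 and 12.4) and 31.9 (limits 3.94 and 59.8). *Btg1* had 28.5 and 86.3. *Cdkn2b* had 0.0423 and 0.607, and its first value is near the 0.0239 FPKM that 3 fragments would give. The lower genes were the myeloid factor *Cebpa* (2.48 and 0.116), *Ndrg1* (19.4 and 4.71) and *Gadd45b* (4.60 and 1.4). The myeloid marker sum was likewise lower in the pro-B library (61.0 and 6.52 FPKM). Its part in the *Cebpa* value was not tested. *Cdkn1a*, the best known gene repressed through Miz-1, had 8.56 and 14.2, a log2 ratio of 0.73. Among the 138 transcripts of the 103 genes, that of *Cdkn2c* was the only one with intervals apart, beside 0.959% apart and higher and 2.06% apart and lower among all transcripts.

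**Figure D5:**
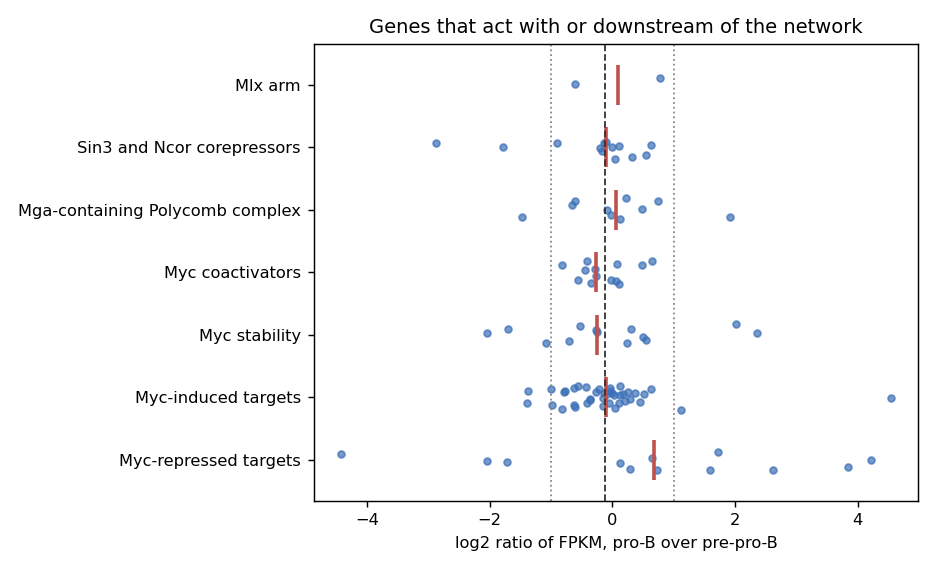
Log2 ratio of FPKM, pro-B over pre-pro-B, for each gene of the 7 lists (points, spread vertically for sight only), with the median of each list in red. The dashed line is the median of all genes (-0.12) and the dotted lines mark 2-fold. The 40 induced targets centre at -0.11 and the 12 repressed targets at 0.69 with the widest spread.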

How the data were processed

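Total RNA of both cell types (RNA integrity number 9.9) was depleted of rRNA and sequenced strand-specifically, nominally to 90 M single-end reads of 97 bp per library. Per the submitters' processing notes, the authors aligned trimmed reads to mm9 with TopHat (1.5 in those notes; the study's parameter list names another version) and estimated FPKM per RefSeq transcript with Cuffdiff 2.1.1, with multi-read and bias correction and without scaling between libraries. The deposited FPKM come with 95% confidence limits. A further deposited table holds the authors' fold changes and p-values with 2 columns of FPKM, and was not used.

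RefSeq accessions were named from a GRCm38 gene table (26173 of 26580 matched, names only), and FPKM were summed over protein-coding transcripts of a gene. Log2 ratios used no pseudocount and genes above 0 in both libraries, with a limit of 2-fold. Gene positions and exons are from GENCODE on NCBIM37 (mm9). Transcripts were paired with it by equal length, which was possible only for those of *Max*, *Mxi1* and *Mga*. For the other members no annotated transcript had the deposited length, and the printed gene limits differ from those of the deposited loci. Approximate fragments are FPKM times length in kilobases times 90. All 15 member transcripts had the status OK. Named list genes were, in each list, at least the 2 with the highest and the 2 with the lowest ratios among genes of at least 1 FPKM in a library, and others were added for their role after the values were seen. Some genes of the lists are not reported here by name. The members and lists were chosen with earlier results of these data known. Python 3.11.15, numpy 2.4.6, pandas 2.3.3 and matplotlib 3.10.9 were used, and the counts were tested on simulated data. Alternatives were pseudocounts of 0.1 and 1, a mean FPKM of at least 1, TPM and median-ratio scaling, the most abundant transcript, added non-coding transcripts and limits of 1.5-fold and 4-fold.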

Additional observations from a re-analysis of the deposited data

How the results depend on the processing

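No paired analysis was possible because each cell type has 1 library. Of the members' log2 ratios, those of *Mycl*, *Mycn*, *Myc*, *Mxd1*, *Mnt*, *Max*, *Mxd3* and *Mxd4* kept their sign under all 7 alternatives, of which the filter on mean FPKM and the added non-coding transcripts left every member at the same value. *Mga*, which had nearly equal values, changed sign under 2 of them (range -0.13 to 0.29) and *Mxi1* under 1 (-0.25 to 0.09). A pseudocount cannot change a sign, and TPM and median-ratio scaling shift all genes alike. For members with a single transcript, the most abundant transcript gives the main value again. A kept sign therefore says little about how firm a difference is. With a pseudocount of 1 the log2 ratio of *Mycl* was -3.82. At a limit of 4-fold, 3 members were lower in place of 5, beside 12.2% of all genes lower and 8.22% higher at that limit. The summed FPKM of the other Max partners had a log2 ratio of -0.0024 in TPM, 0.20 with median-ratio scaling and 0.17 without *Mga*, so its sign depends on scaling. TPM moved the median over all genes to -0.24. The median of the Myc-repressed genes was 1.27 with the most abundant transcript of each gene. The deposited intervals, 1 library per cell type and the joined differences of genotype, sex, age, tissue and cytokines limit every comparison.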
